A study of Mus musculus with 16 samples.

Results

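The 77 genes described here carry the symbols given to proteins of the mitochondrial ribosome. They are the rows of the expression table whose symbol is Mrpl or Mrps followed by a number and at most 1 letter, and they make up 77 of 47643 rows. The prefix Mrpl marks the large subunit (48 genes) and Mrps the small subunit (29 genes). All 77 passed the filter on low values, a mean of at least 1 TPM (transcript abundance scaled to the same total in every sample), which 10628 genes passed. The samples were 16 tibialis anterior muscles from male C57BL6/J mice, in 4 groups of 4: wild-type (WT) mice at 6 months, mice with a muscle-specific knockout of the ubiquitin ligase UBR4 (UBR4 mKO) at 6 months, and the same 2 genotypes at 24 months. All mice carried Ubr4 fl/fl alleles and received tamoxifen. The WT mice were siblings without Cre, and in the UBR4 mKO mice a tamoxifen-inducible Cre was driven by the ACTA1 promoter of skeletal muscle fibers, so that Ubr4 stays intact in the other cells of the muscle.

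Mitochondrial ribosomes translate the few respiratory chain subunits that the mitochondrial genome still encodes. Their RNAs come from mitochondrial DNA, whereas all of their proteins are encoded in the nucleus, made in the cytosol and imported. The large subunit forms peptide bonds and feeds the new chain to the inner membrane, and the small subunit binds the messenger RNA and decodes it. Part of the proteins have relatives in bacterial ribosomes and the others were added in the course of mitochondrial evolution. Muscle depends heavily on this machinery, and inherited defects in several of these genes impair oxidative phosphorylation.

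Ubr4, the deleted gene, had 12.2 ± 2.82 TPM (SD, n = 4) in WT and 5.49 ± 0.75 TPM in UBR4 mKO muscle at 6 months, and 18.3 ± 1.89 and 9.14 ± 4.33 TPM at 24 months, when the UBR4 mKO samples had 10.1, 14.6, 4.28 and 7.63 TPM. The first and second of them were within the range of WT at 6 months (9.09 to 15.7 TPM). Ubr4 was lower in UBR4 mKO in both comparisons without overlap (two-sided exact permutation test, p = 0.0286, the smallest that 4 against 4 samples allow). In limma the adjusted p was 0.00365 at 6 and 0.0598 at 24 months. RNAs encoded by the mitochondrial genome took 56.3 ± 3.01% of all TPM in WT at 6 months and 46.1% to 51.7% in the other 12 samples, so a gene that kept its share of the remaining RNA has a higher TPM there. The third UBR4 mKO sample at 24 months, the one with the least Ubr4 at that age, stood apart, with members 0.28 above their 16-sample mean (median, log2) where the other 3 lay between -0.04 and -0.003. Against the label male, all 8 libraries at 6 months held Xist (0.71 to 23.8 TPM, at most 0.03 at 24 months) beside Y-linked RNA, and the fourth UBR4 mKO library at 6 months held almost only Xist (Ddx3y 0.07 TPM, against 2.29 TPM or more in the other 7). Summed leukocyte markers (7 of 8 listed genes above 0) were 1.73 to 2.27 TPM in WT and 5.29 to 22.0 TPM in UBR4 mKO at 6 months, while fast fiber markers were at 41978 TPM or more in every sample. In bulk tissue, fewer cells of a type and less RNA per cell cannot be told apart.

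The members spanned a wide range of levels in this muscle. Averaged over the 16 samples they lay between 4.01 and 480 TPM, with a median of 31.7 TPM for the large and 28.7 TPM for the small subunit, and no member was at 0 in any sample. The most abundant by far was Mrpl42, a large subunit protein without a bacterial relative, whose level was 418 to 542 TPM over all samples. It was followed by the small subunit gene Mrps21, whose protein is related to bacterial S21, at 179 TPM, and by Mrpl12, whose protein forms the stalk that recruits translation factors, at 133 TPM. Mrpl53, Mrps28, Mrpl14 and Mrps16 came next, with mean levels from 92.5 to 108 TPM. Lowest in the small subunit were Mrps35 with a mean of 4.01 TPM and Mrps10 with 5.51 TPM, and lowest in the large subunit was Mrpl19 with 6.08 TPM. The stalk base genes Mrpl10 and Mrpl11 had lower means than Mrpl12, 28.6 and 21.4 TPM. TPM is scaled by transcript length, so these levels can be set side by side, but a transcript level is not the amount of protein. Replicates were close: the median coefficient of variation over members was 6.05% in WT and 6.18% in UBR4 mKO at 6 months, 5.74% in WT at 24 months and 11.2% in UBR4 mKO at 24 months.

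**Figure D1:**
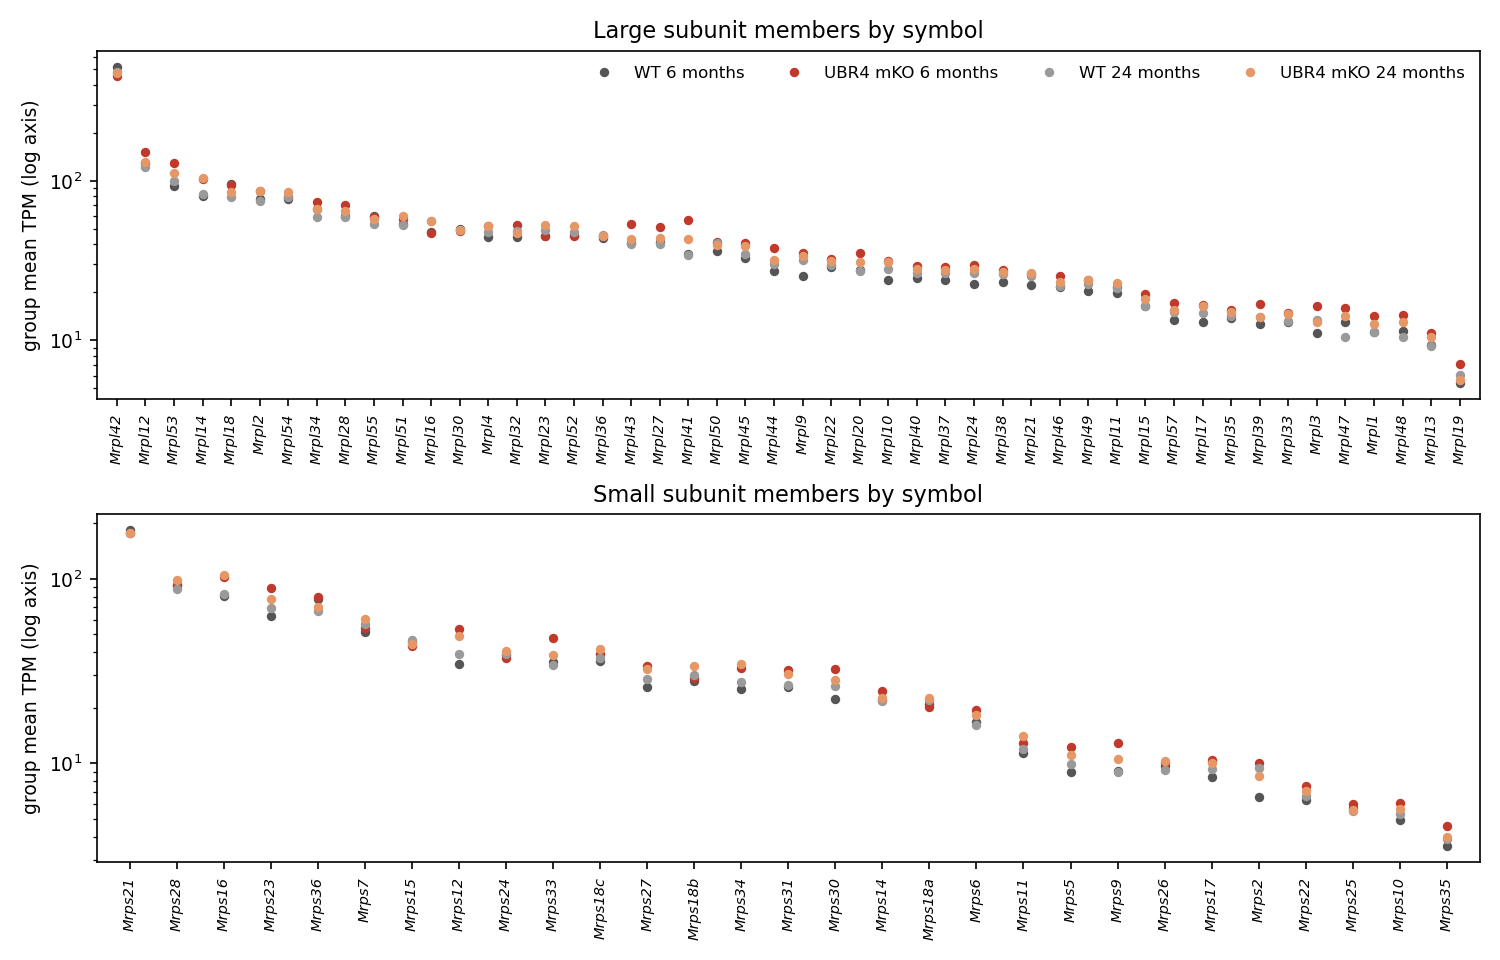
Group mean TPM (log axis) of the 48 large subunit genes (top) and the 29 small subunit genes (bottom), ordered by their mean over 16 samples, with 1 point per group of 4 samples. Mrpl42 sits near 480 TPM, well above the next gene, Mrps21, at 179 TPM, and the 4 groups lie close together for most genes.

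The large and small subunit genes moved together across samples. The mean log2(TPM + 0.1) of the large subunit genes exceeded that of the small subunit genes by 0.51 ± 0.03 (SD, n = 4) in WT and 0.51 ± 0.01 in UBR4 mKO at 6 months, and by 0.50 ± 0.02 and 0.48 ± 0.02 at 24 months. Over single samples this difference ran from 0.47 to 0.54, while the level of each subunit itself varied more: from 4.90 to 5.32 for the large and from 4.36 to 4.84 for the small. Between groups the mean difference shifted by -0.03 from 6 to 24 months in UBR4 mKO, where the SD was 0.01 and 0.02, and by less in the other 3 comparisons, and none of these shifts was tested. With proteins assigned to the subunit they sit in, the difference was 0.54 to 0.56 in UBR4 mKO at 6 months and 0.50 to 0.54 at 24 months, with the ranges just apart. Summed TPM gave the same picture, with 2184 to 2794 TPM for the large and 957 to 1314 TPM for the small subunit and a ratio of 2.13 to 2.34. Mrpl42 alone supplied 17.9% to 24.0% of the large subunit sum, and without it the ratio was 1.70 to 1.86. The third UBR4 mKO sample at 24 months, which had the highest level of both subunits, had a difference of 0.48, within the range of the others. Deviations of single members from their group means also ran together: the median Pearson correlation over pairs of members and the 16 samples was 0.58, and 0.77 once each sample's median gene was taken out. After that step it was 0.78 within the large subunit, 0.77 within the small and 0.77 between them. Over all genes tested the median correlation was 0.32, and -0.0020 after that step. The values of the members rested in part on the third UBR4 mKO sample at 24 months: without it they were 0.39 and 0.49, against 0.38 and -0.0016 for all genes. These correlations describe genes that share the same libraries.

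**Figure D2:**
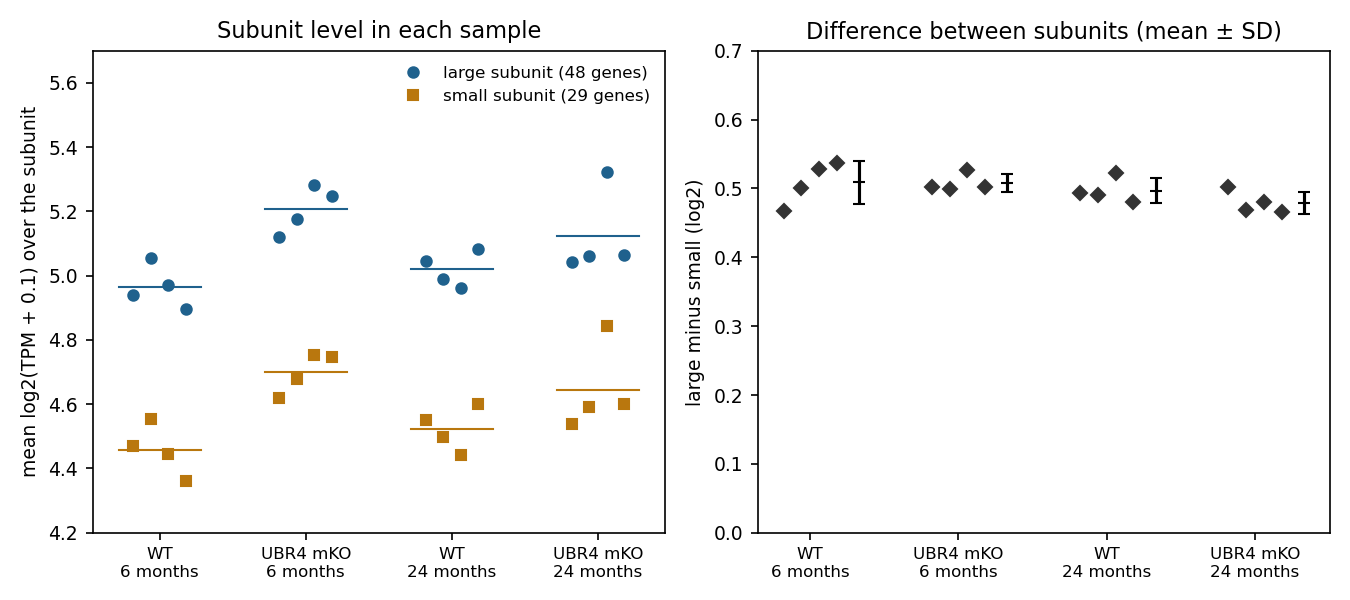
Left, the mean log2(TPM + 0.1) of large (circles) and small (squares) subunit genes in each of the 16 samples, with lines at the group means. Right, the large minus small difference in each sample with the group mean ± SD, which stays between 0.47 and 0.54 although both subunits are higher in UBR4 mKO than in WT at 6 months.

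Loss of UBR4 at 6 months gave the most calls among members in the deposited TPM, though not after quantile normalization (11, against 12 for age in WT) or under median-of-ratios scaling, in which the typical gene is set to no change, without UBR4 mKO replicate 3 at 24 months (28 against 32). In the deposited TPM, 39 of 77 members were higher in UBR4 mKO and 1, Mrpl42, was lower (limma over 10628 genes, Benjamini-Hochberg adjusted p under 0.05). Among all genes tested, 43.7% were called higher and 1.15% lower, so the share of members that rose, 50.6%, was near the background. The large subunit contributed 25 of its 48 genes and the small subunit 14 of its 29. The median log2 fold change was 0.25 for all members, 0.25 for the large and 0.24 for the small subunit, against 0.33 for all genes tested, and 26 of 77 members lay above that median. In 43 members every UBR4 mKO sample was above every WT sample, and this was the case for 39.0% of all genes. In 1 member every UBR4 mKO sample was below, as in 0.932% of all genes. Under median-of-ratios scaling of all samples 0 members were higher and 6 lower, so the directions given next are those of the deposited TPM. Without the fourth UBR4 mKO library, 32 members were higher and 1 lower, against 29.2% and 1.39% of all genes in that fit. Without WT replicate 4, 31 members (and 24.7% of all genes) were higher and 0 lower. Endothelial markers moved with the genotype at this age (70.9 to 96.3 TPM in WT and 110.6 to 120.1 TPM in UBR4 mKO), as did skeletal muscle markers (44668 to 53140 and 56237 to 62424 TPM) and the leukocyte markers given above, and their part in the result was not tested.

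Among the large subunit genes Mrpl41 rose most. It encodes a protein with no bacterial relative that has also been described to bind the apoptosis regulator BCL2. Its level was 37.4, 37.6, 32.5 and 32.1 TPM in WT and 57.4, 57.1, 57.9 and 53.7 TPM in UBR4 mKO at 6 months. Each UBR4 mKO sample was thus well above each WT sample, and the log2 fold change was 0.70 ± 0.10 (SE, limma adjusted p = 0.000182). Mrpl3, whose bacterial relative lies near the site of peptide bond formation, went from 11.1 ± 1.59 to 16.4 ± 2.38 TPM (log2 fold change 0.56 ± 0.12, limma adjusted p = 0.00236). Mrpl9, related to bacterial L9, had 25.5, 28.7, 24.4 and 22.3 TPM in WT and 31.5, 35.9, 36.8 and 37.0 TPM in UBR4 mKO, again without overlap (0.48 ± 0.09, limma adjusted p = 0.00117). Mrpl44, which carries a ribonuclease III-like fold, rose from 27.2 ± 2.46 to 37.9 ± 2.23 TPM. Of the stalk genes, the base protein gene Mrpl10 rose (0.40 ± 0.10, limma adjusted p = 0.00501), while Mrpl11 (0.13 ± 0.10) and Mrpl12 (0.21 ± 0.09) did not pass the test, although for Mrpl12 as for Mrpl10 every UBR4 mKO sample was above every WT sample, and the differences among the 3 were not tested. Mrpl45, the anchor of the ribosome to the inner membrane, rose by a log2 fold change of 0.31 ± 0.09, which became -0.04 under median-of-ratios scaling.

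In the small subunit Mrps12 rose most. It encodes the S12 protein of the decoding center. Its level was 36.8, 34.6, 34.9 and 31.4 TPM in WT and 50.6, 55.9, 48.1 and 58.3 TPM in UBR4 mKO at 6 months, with no overlap between groups (log2 fold change 0.63 ± 0.13, limma adjusted p = 0.00179). Mrps2, related to bacterial S2, had 5.81, 6.85, 7.67 and 6.10 TPM in WT and 9.92, 9.01, 10.8 and 10.5 TPM in UBR4 mKO (0.60 ± 0.10, limma adjusted p = 0.000434). Here too the groups were apart. Mrps9 rose from 9.06 ± 0.99 to 12.9 ± 0.38 TPM, and the more abundant Mrps23 from 62.9 ± 7.71 to 89.5 ± 9.56 TPM. Mrps30, whose protein sits in the large subunit despite its name, rose from 22.4 ± 1.63 to 32.6 ± 0.88 TPM. The 3 paralogs related to bacterial S18 did not pass the test: the log2 fold change was -0.05 for Mrps18a, whose protein is also part of the large subunit, 0.05 for Mrps18b and 0.13 for Mrps18c. For Mrps18c the groups nevertheless did not overlap, with 34.8 to 37.2 TPM in WT and 37.9 to 40.4 TPM in UBR4 mKO (two-sided exact permutation test, p = 0.0286). Mrps36, now known as a component of the 2-oxoglutarate dehydrogenase complex rather than of the ribosome, did not pass the limma test (0.04 ± 0.09). The abundant Mrps21 (-0.05 ± 0.09) and Mrps28 (-0.01 ± 0.09) did not pass it either, and for all 3 the groups overlapped.

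Mrpl42 was the only member called lower in the deposited TPM. It had 506, 496, 542 and 532 TPM in WT and 418, 443, 470 and 474 TPM in UBR4 mKO at 6 months. All UBR4 mKO samples lay below all WT samples, and the log2 fold change was -0.20 ± 0.07 (limma adjusted p = 0.0269). The adjusted p in limma was 0.073 and 0.0712 without WT replicate 3 or 4, and 0.0803 and 0.0586 without UBR4 mKO replicate 1 or 2. It was 0.0568 in limma without a variance trend. Its share of the large subunit sum went from 22.9 ± 1.21% to 18.1 ± 0.28%, with 20.1% to 22.1% in WT at 24 months. At 24 months its level was 477 ± 8.57 TPM in WT and 472 ± 43.2 TPM in UBR4 mKO, a log2 fold change of -0.02. Lower level went with larger rise at 6 months across the 77 members (Spearman rho -0.35), as across all genes tested (-0.25), a description of genes measured in the same libraries. Members without a bacterial relative were called higher in 18 of 29 cases and those with one in 21 of 46 (2 were not classed), against 43.7% of all genes, a difference that was not tested.

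The calls at 6 months depended on the scaling. Median-of-ratios scaling left 0 members higher and 6 lower, against 6.66% and 10.2% of all genes, and the median over members became -0.10. The 6 were Mrpl42, at -0.56 (limma adjusted p = 0.0062), Mrps15, Mrps18a, Mrpl30, Mrpl18 and Mrpl16, whose log2 fold changes were between -0.43 and -0.37 and which had not differed by the test in the deposited TPM. Mrpl42 was the only member called lower under both scalings. The unadjusted p was under 0.05 for 23 members and 3394 of all genes after this scaling. When the mitochondrially encoded genes were taken out and the remaining TPM rescaled to the same total, 9 members were higher and 11 lower (background 9.07% and 5.87%). Relative to the median of all genes the members lay 0.08 lower under both of these scalings and in the deposited TPM. Both scalings divide all genes of a sample by the same factor and so can hardly change this distance. This distance was -0.01 after quantile normalization, -0.03 with a pseudocount of 1 and 0.003 with no filter on low values, and it was -0.02 without WT replicate 4 and -0.14 without WT replicate 2. The cause of the shift in the median gene was not tested.

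**Figure D3:**
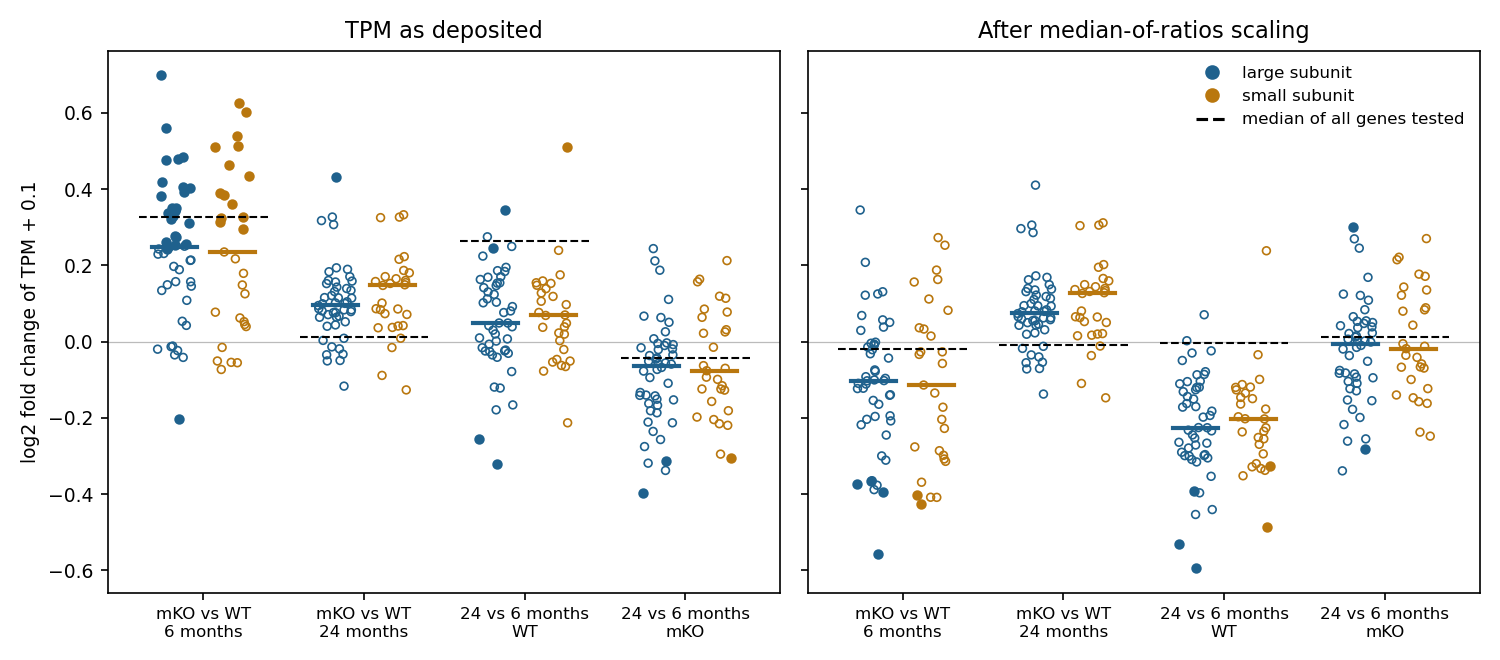
Log2 fold changes of the 48 large (blue) and 29 small (orange) subunit genes in 4 comparisons, from the deposited TPM (left) and after median-of-ratios scaling (right). Filled points have a limma adjusted p under 0.05, short bars are the subunit medians, and dashed lines the median of all 10628 genes. At 6 months the subunit medians are at 0.25 and 0.24 on the left and below 0 on the right, and at 24 months at 0.10 and 0.15 on the left.

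Genes that serve the mitochondrial ribosome are given here beside the 43.7% of all genes called higher at 6 months. Under median-of-ratios scaling only 1 assembly factor and 1 regulator were called higher, against 6.66% of all genes. Of 5 ribosomal proteins whose symbol does not start with Mrp, 3 were higher: Gadd45gip1 (0.41), Ptcd3 (0.34) and Dap3 (0.27). Of 15 mitochondrial translation factors 11 were higher, led by the translational activator Taco1 (0.49) and the initiation factors Mtif2 (0.48) and Mtif3 (0.46). Of 21 assembly factors 14 were higher, among them the pseudouridine synthases Trub2 (0.70) and Rpusd4 (0.53) and the helicase Ddx28 (0.53), all limma adjusted p under 0.05. Of 12 regulators of mitochondrial biogenesis 5 were higher, including Myc (1.01), Gabpa (0.49) and Gabpb1 (0.39). None of these 4 lists held a gene called lower. Their medians, 0.27, 0.32, 0.36 and 0.35, were again near the 0.33 of all genes. In the deposited TPM 12 of 80 cytosolic ribosomal protein genes and 24 of 78 nuclear-encoded respiratory chain genes were called higher, with medians of 0.09 and 0.12. Under median-of-ratios scaling the last 2 medians were -0.27 and -0.23, against -0.10 for the mitochondrial ribosome. The differences between the lists were not tested.

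Few members were called between UBR4 mKO and WT muscle at 24 months. Only Mrpl47, a protein near the exit tunnel, was called (1 of 77, against 0.433% of all genes called higher), and 13 members and 1076 of all genes had an unadjusted p under 0.05. It had 10.97, 10.2, 10.8 and 9.77 TPM in WT and 14.1, 12.9, 16.5 and 13.0 TPM in UBR4 mKO. The groups did not overlap, with a log2 fold change of 0.43 ± 0.09 (limma adjusted p = 0.0377). The call was lost without any 1 of 11 samples, among them all 4 WT samples at 24 months (limma adjusted p from 0.0761 to 0.12), UBR4 mKO replicates 1, 3 and 4 at 24 months and 1, 2 and 3 at 6 months, and WT replicate 1 at 6 months (0.0522 to 0.0695). After median-of-ratios scaling the fold change was 0.41 and the adjusted p 0.147 in limma. The ends of Mrpl47 overlap exons of its neighbors Actl6a and Ndufb5, the latter at 307 TPM, and whether counting used the strand is not given in the sources used here. Ndufb5 itself had a log2 fold change of 0.20 (limma adjusted p = 0.49). The median over members was 0.10 (0.10 for the large and 0.15 for the small subunit, a difference that was not tested) against 0.01 for all genes, and 67 of 77 members, 87.0%, had a fold change above 0, as had 53.1% of all genes. This rested on the third UBR4 mKO sample: without it the median was 0.03 against 0.07 for all genes, and no member was called. The groups did not overlap in 8 higher and 0 lower members, against 4.29% and 1.51% of all genes. Summed skeletal muscle markers lay at 58310 to 64868 TPM in WT and 56040 to 57111 TPM in UBR4 mKO at 24 months, without overlap. Leukocyte markers were at 3.94 to 8.08 and 7.52 to 29.03 TPM and adipocyte markers at 7.59 to 19.5 and 10.97 to 70.2 TPM, no marker was called, and their part in the result was not tested. Mrpl53 had 97.9, 105 and 102 TPM in the other 3 UBR4 mKO samples and 144 TPM in that one, against 89.5 to 107 TPM in WT.

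Few members were called with age in WT muscle, where the typical gene rose in the deposited TPM. The median over members was 0.05 (large subunit 0.05, small subunit 0.07) in the deposited TPM against 0.26 for all genes, and 3 of 77 members lay above the median of all genes. Of the members 3 were called higher and 2 lower, against 24.0% and 1.07% of all genes. The groups did not overlap in 6 higher and 4 lower members, against 24.1% and 1.83% of all genes. Several summed markers moved with age in WT without overlap. Slow fiber markers were at 84.1 to 163 TPM at 6 and 45.2 to 65.6 TPM at 24 months. In the same order, fast fiber markers were at 41978 to 51775 and 54807 to 60832 TPM, and skeletal muscle markers at 44668 to 53140 and 58310 to 64868 TPM. Leukocyte markers were at 1.73 to 2.27 and 3.94 to 8.08 TPM. Summed fibroblast markers (2 of 5 called lower) and Schwann cell markers (2 of 4 tested called higher) overlapped between the ages. The part of all these markers in the result was not tested. The same WT samples at 6 months serve here and in the comparison of genotypes at that age, so the values of one comparison are not independent of the other. Mrps2 rose from 6.61 ± 0.83 to 9.41 ± 0.60 TPM, with 10.3, 9.08, 8.96 and 9.31 TPM in the 4 samples at 24 months (0.51 ± 0.10, limma adjusted p = 0.00264). All 4 were above the 6-month samples. Mrpl9 rose from 25.3 ± 2.68 to 32.0 ± 1.65 TPM (0.34 ± 0.09, limma adjusted p = 0.0154) and Mrpl16, whose bacterial relative binds near the tRNA sites, from 47.5 ± 4.50 to 56.1 ± 0.81 TPM (0.24 ± 0.08, limma adjusted p = 0.0409). Mrpl47 fell from 13.1 ± 0.61 to 10.4 ± 0.56 TPM (-0.32 ± 0.09, limma adjusted p = 0.0186). Mrpl18, related to the bacterial protein that binds 5S RNA, had 91.3, 98.1, 94.7 and 95.0 TPM at 6 months and 79.0, 76.8, 80.0 and 81.9 TPM at 24 months, a gap between groups with little spread within them (-0.26 ± 0.07, limma adjusted p = 0.0222). Several of these calls were lost without 1 sample: that of Mrpl18 without WT replicate 3 or 4 at 6 months or 1 or 2 at 24 months (limma adjusted p at most 0.0571), that of Mrpl9 without WT replicate 4 of either age (at most 0.0585), and that of Mrpl47 without WT replicate 3 at 6 months or 4 at 24 months (at most 0.0626). The call of Mrpl16 was lost without WT replicate 1, 3 or 4 at 6 months, any WT sample at 24 months, UBR4 mKO replicate 2 or 3 at 6 months or UBR4 mKO replicate 2 at 24 months (limma adjusted p at most 0.146). The exons of Mrpl18 also overlap with those of its neighbor, the chaperonin gene Tcp1.

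After median-of-ratios scaling 0 members were higher and 5 lower with age in WT (background 4.44% and 5.33%), and the median was -0.23. Mrpl47 (-0.59) and Mrpl18 (-0.53) kept their calls, Mrps36 (-0.49), Mrpl48 (-0.39) and Mrps33 (-0.32) gained one, and the rises of Mrps2 (0.24), Mrpl9 (0.07) and Mrpl16 (-0.03) were no longer called. Without the mitochondrially encoded genes 1 member was higher and 14 lower (background 5.82% and 4.08%). The count of 5 in the deposited TPM moved with single libraries: it was 16 without WT replicate 2 at 6 months (14 higher and 2 lower, against 45.8% and 1.04% of all genes in that fit) and 9 without UBR4 mKO replicate 3 at 24 months (6 higher and 3 lower, against 37.5% and 1.77%). It was 3 without WT replicate 1 or 2 at 24 months (2 higher in each, against 11.9% and 18.3%), and 2 without WT replicate 3 or 4 at 6 months or replicate 4 at 24 months (2, 1 and 1 higher, against 11.9%, 8.43% and 9.76%). Beside the 24.0% of all genes called higher and 1.07% called lower with age in WT, respiratory chain genes had 1 higher and 5 lower of 78 with a median of -0.10, and cytosolic ribosomal protein genes 13 higher and 0 lower of 80 with a median of 0.16. After median-of-ratios scaling these medians were -0.37, with 0 higher and 27 lower, and -0.12, with 1 higher and 0 lower.

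In UBR4 mKO muscle 0 members were higher and 3 lower at 24 than at 6 months (background 2.45% and 3.85%), with a median of -0.07 (large subunit -0.06, small subunit -0.08) against -0.04 for all genes. Without UBR4 mKO replicate 3 at 24 months the median was -0.13 against 0.01. Endothelial markers moved in this comparison too, from 110.6 to 120.1 TPM down to 58.1 to 91.6 TPM (3 of 5 called lower). Slow fiber and fibroblast markers each had 2 of 5 called lower, with summed levels of 75.7 to 169 and 222 to 424 TPM at 6 months and 33.5 to 88.5 and 239 to 452 TPM at 24 months, which overlap. The part of these markers in the result was not tested. The groups did not overlap in 1 higher and 8 lower members, against 4.43% and 8.49% of all genes. Mrpl41 fell from 56.5 ± 1.90 to 43.3 ± 7.33 TPM, with 36.4, 39.0, 52.9 and 45.0 TPM at 24 months, each below the 6-month samples (-0.40 ± 0.10, limma adjusted p = 0.0256). Mrpl43 fell from 53.4 ± 4.15 to 43.0 ± 3.40 TPM (-0.31 ± 0.09, limma adjusted p = 0.0401) and Mrps33 from 47.7 ± 2.40 to 38.6 ± 3.85 TPM (-0.31 ± 0.09, limma adjusted p = 0.0412). The call of Mrpl41 was lost without UBR4 mKO replicate 1, 2 or 3 at 6 months or 1 or 2 at 24 months (limma adjusted p 0.0663 to 0.0856), and those of Mrpl43 and Mrps33 without 10 and 12 of the 16 samples in turn (at most 0.14 and 0.138). All 3 belong to the proteins without a bacterial relative, and none was called after median-of-ratios scaling, where Mrpl16 rose (0.30) and Mrpl19 fell (-0.28), against 5.97% and 5.30% of all genes. Without the mitochondrially encoded genes 8 members were called, against 4.51% of all genes higher and 4.76% lower. The count of 3 was 9, all lower, without UBR4 mKO replicate 3 at 24 months (3.82% of all genes in that fit), and 5, all lower, without WT replicate 4 at 6 months (4.52%). It was 0 without UBR4 mKO replicate 2 or 3 at 6 months or replicate 1 or 2 at 24 months, where 2.12% to 3.90% of all genes were lower. It was 1, lower, without WT replicate 1 or 3 at either age, UBR4 mKO replicate 1 at 6 months or UBR4 mKO replicate 4 at 24 months (2.57% to 3.47%). Leaving out the fourth UBR4 mKO library at 6 months, the one with almost no Y-linked RNA, gave 1 higher and 1 lower, against 2.41% and 2.76%.

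The interaction of genotype and age was called for Mrps2 (-0.73 ± 0.14, limma adjusted p = 0.00938). Its rise with loss of UBR4 at 6 months had no counterpart at 24 months, when it had 9.41 ± 0.60 TPM in WT and 8.60 ± 0.34 TPM in UBR4 mKO (-0.13 ± 0.10). Of all genes 0.122% had a positive and 4.58% a negative interaction. The median over members was -0.12 (large subunit -0.14, small subunit -0.06) against -0.31 for all genes, and -0.20 against -0.25 without UBR4 mKO replicate 3 at 24 months. An unadjusted p under 0.05 was found for 17 members and 3298 of all genes. After median-of-ratios scaling the value for Mrps2 was -0.40 (limma adjusted p = 0.154) and no member was called (17, and 1982 of all genes, with an unadjusted p under 0.05), against 1.02% and 0.969% of all genes. Without the mitochondrially encoded genes 1 member was called, against 0.782% higher and 1.23% lower. The count of 1 was 12 without WT replicate 2 at 6 months, 5 without UBR4 mKO replicate 3 at 24 months, and 2 without WT replicate 2 or UBR4 mKO replicate 4 at 24 months, all negative, against 23.1%, 4.76%, 4.79% and 6.12% of all genes in these fits.

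**Figure D4:**
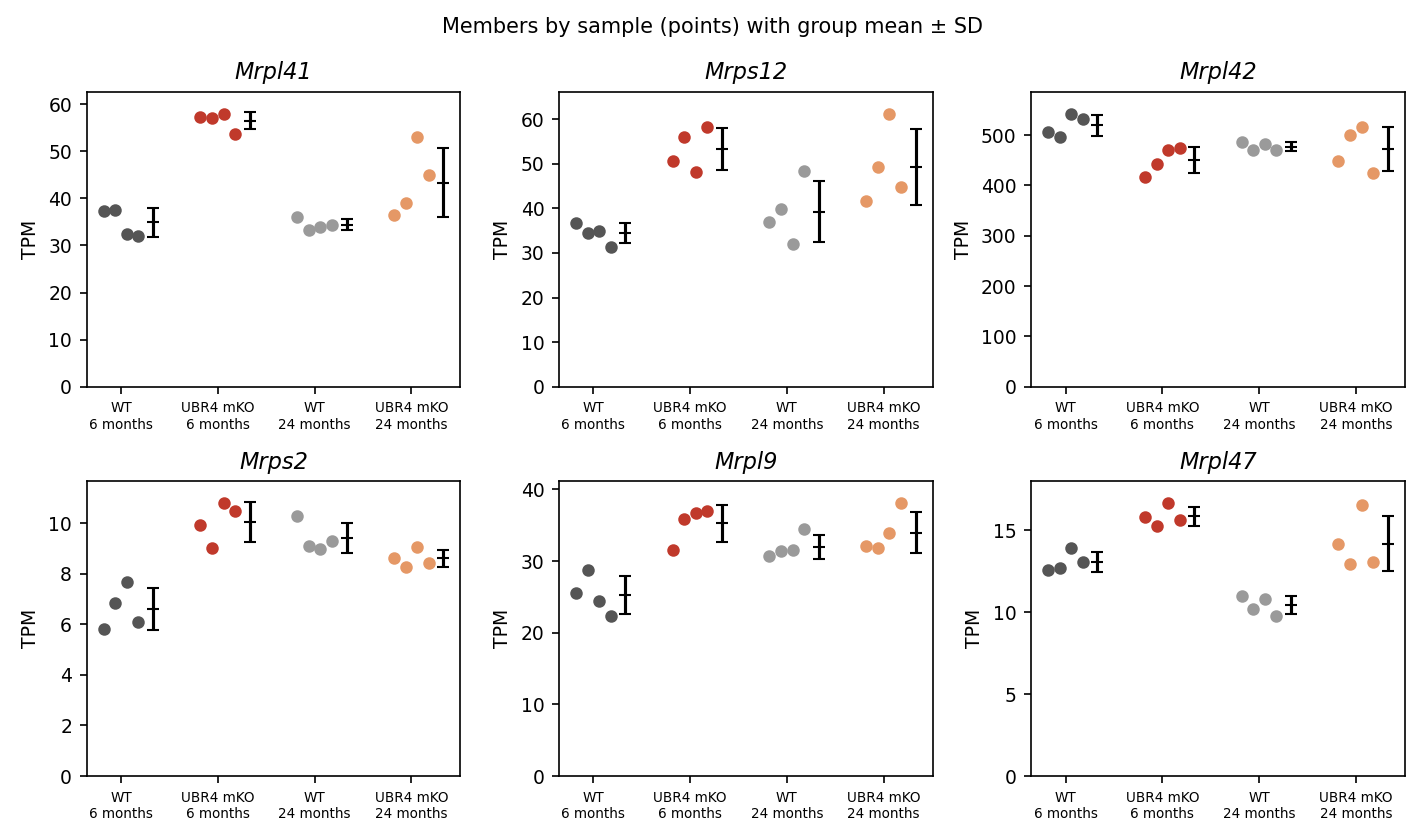
TPM of 6 members in each sample (points, by group) with the group mean ± SD (n = 4), each axis starting at 0. Mrpl41, Mrps12, Mrps2 and Mrpl9 are higher and Mrpl42 is lower in all UBR4 mKO than in all WT samples at 6 months, and Mrpl47 is lowest in WT at 24 months.

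The members are scattered over the genome. In the GENCODE annotation of the mouse build GRCm38 they lie on 17 chromosomes, with at most 10 on any of them. Mrpl41 lies at chr2:24974117-24975098 (minus strand), Mrps12 at chr7:28739641-28741820 (minus), Mrps2 at chr2:28468066-28471178 (plus) and Mrpl42 at chr10:95480805-95501940 (minus). Many start close to a neighbor on the other strand: 33 of 77 (42.9%) had another protein-coding gene starting there within 1000 bases, against 17.0% of the 9975 protein-coding genes tested. This includes pairs whose ends overlap, such as Mrpl48 with Rab6a and Mrpl43 with Twnk. Mrps11 and Mrpl46 form such a pair with each other. Of 25 such neighbors that were tested, 11 (44%) were called higher at 6 months, near the 43.7% of all genes, and so were 6 of the 12 beside a member called higher. Mrps12 starts 172 bases from Sars2, the mitochondrial seryl-tRNA synthetase, which rose beside it at 6 months (0.50, limma adjusted p = 0.00195), and Mrps27 starts 81 bases from Ptcd2, which rose likewise (0.40, limma adjusted p = 0.00823). Mrpl41, in contrast, starts 935 bases from Pnpla7, whose fold change was 0.05. Exons of 32 members overlap with those of another gene (41.6%, against 37.4% of the protein-coding genes tested). Near copies of 24 members are found elsewhere in the genome (at least 90% identity over at least 200 bases), 80 in all, most of them pseudogenes. Of these, 45 were listed at 0 in every sample, 3 were above 0 and 32 could not be matched to a row by symbol. Mrpl48 had more of them than any other member, and its matches to part of the transcript included protein-coding genes such as Vmn2r53. The 3 above 0 were all matches to Mrpl48 (mean 12.3 TPM). They were D10Wsu102e (2.27 TPM), Gm21897 (0.030 TPM) and Gm21750 (0.0078 TPM).

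The promoters of the members were searched for the motifs of factors known to serve mitochondrial genes, from 250 bases before to 50 after the start (RefSeq, build GRCm38.p6, 68 of 77 members matched). The core of the NRF1 motif, GCGCA and GCGC with 1 base between them, was found on either strand in 13 of 68 members (19.1%), against 5.19% of all 27025 genes with a promoter and 12.5% of the genes tested here. CCGGAAG, the core of ETS factors such as GABPA, was found in 25 (36.8%, against 9.93% and 21.0%) and AAGATGGCG, the core of YY1, in 8 (11.8%, against 1.64% and 4.1%). Of the 68, 40 held at least 1 of the 3. NRF1 matches were in 10 of 42 large and 3 of 26 small subunit genes, and ETS matches in 14 of 42 and 11 of 26. The median log2 fold change at 6 months was 0.34 with and 0.23 without an NRF1 match, 0.25 and 0.24 for ETS, and 0.11 and 0.25 for YY1, a description over genes. The following stretches show such matches (capitals, which mark the motif) with the 25 bases on either side, before the start and outside annotated exons. They are written 5′ to 3′ on the strand of the gene and were chosen to show NRF1 and ETS matches in genes described above and, for the small subunit, in Mrps27.
Mrpl12 (NRF1, reverse strand, plus strand gene, chr11:120484531-120484590): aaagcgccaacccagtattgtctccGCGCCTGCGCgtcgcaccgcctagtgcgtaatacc
Mrpl45 (NRF1, plus strand gene, chr11:97315653-97315712): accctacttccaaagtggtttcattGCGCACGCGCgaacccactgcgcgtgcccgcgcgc
Mrpl43 (ETS, minus strand gene, chr19:45006467-45006523): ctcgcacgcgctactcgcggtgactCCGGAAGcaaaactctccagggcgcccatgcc
Mrps27 (ETS, reverse strand, plus strand gene, chr13:99344713-99344769): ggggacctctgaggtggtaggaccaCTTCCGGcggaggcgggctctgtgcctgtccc
The printed matches begin 81, 38, 56 and 48 bases before the start. Of the members given above by sample, Mrps12, Mrpl18 and Mrpl53 held the ETS core, Mrpl9 the NRF1 core and Mrpl42 the YY1 core, while none of the 3 was found in this window of Mrpl41, Mrpl47 or Mrps2. A match is a run of letters and says nothing on whether a factor binds there.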

How the data were processed

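Tibialis anterior RNA of 16 mice was sequenced with paired-end reads. As the study's methods describe, the authors trimmed the reads, mapped them to the mouse genome (GRCm38) with CLC Genomics Workbench and deposited 1 table of TPM values per gene and sample, which sum to the same total in every sample. Read counts are not part of it, so depth, and with it the counting error of each value, is unknown, and the annotation release and the handling of strand and of reads with several matches are not given in the sources used here. The labels name a stranded mRNA kit and the methods another kit and instrument.

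From the deposited TPM, log2(TPM + 0.1) was fitted with limma (version 3.58.1, R 4.3.3, variance trend) on 10628 genes, those whose TPM averaged 1 or more, with 1 coefficient per group. Contrasts compared the genotypes within each age and the ages within each genotype, and tested their interaction. P-values were Benjamini-Hochberg adjusted over all genes tested, and 0.05 was the threshold. A fold change on this scale slightly understates the change of low genes. Single values were compared by two-sided exact permutation tests. The pipeline was tested on simulated data. The study's methods name Kruskal-Wallis with Dunn tests, run here as an alternative, beside other pseudocounts, filters, scalings, weights, a replicate block and the omission of each sample. Median-of-ratios factors used the 14470 genes above 0 in every sample. The members and gene lists were chosen with earlier results of these data known. Members named in the text are the highest and lowest by level in each subunit, those called in each comparison by size of change, and fixed members by role, and others are named where a count or a promoter needed it. One ribosomal protein listed as Ict1 has no Mrp symbol and is not among the 77. Near copies were searched with minimap2 2.31.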

Additional observations from a re-analysis of the deposited data

Results flagged for a closer look

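Of 152 groups of 4 values examined, 7 held a sample far from the other 3, where chance alone gives about 1 in 20 groups (7.6). In UBR4 mKO at 24 months these were the third sample for Mrpl53 (144 TPM, others 97.9 to 105), Mrps16 (128 TPM, others 94.1 to 98.1), Mrpl11 (27.8 TPM, others 20.7 to 21.8) and the mean log2 level of the large subunit (5.32, others 5.04 to 5.07). In UBR4 mKO at 6 months they were the fourth sample for Mrps15 (48.2 TPM, others 41.0 to 42.1), which is the library with almost no Y-linked RNA, and the third sample for the large minus small subunit difference (0.53, all others 0.50). In WT at 24 months the third sample had 69.0 TPM of Mrps36, against 65.6 to 66.1 TPM in the others.

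The effect of UBR4 loss on Mrps2 differed between the ages, with an interaction of -0.73 on the log2 scale (limma adjusted p = 0.00938), and -0.40 after median-of-ratios scaling (limma adjusted p = 0.154).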

How the results depend on the processing

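The count of members called at 6 months (40) was 6 under median-of-ratios scaling, 20 without mitochondrially encoded genes and 11 after quantile normalization (6 higher and 5 lower, against 7.49% and 9.63% of all genes). At 24 months (1) it was 0 under these 3 scalings, without a variance trend, with only the groups compared and by Dunn tests (7 with an unadjusted p under 0.05), and 3, all higher, with array weights (1.61% of all genes). For age in WT (5) it was 15 without mitochondrially encoded genes, 12, all lower, after quantile normalization (6.18% of all genes), 27 with array weights (23 higher and 4 lower, against 59% and 2.49%) and 0 by Dunn tests (5 with an unadjusted p under 0.05). For age in UBR4 mKO (3) it was 8 without mitochondrially encoded genes, 9 after quantile normalization (1 higher and 8 lower, against 6.62% and 6.47%), 1 without a variance trend, 19 with array weights (1 higher and 18 lower, against 8.86% and 7.54%) and 0 with only the groups compared or by Dunn tests. For the interaction (1) it was 0 under median-of-ratios scaling and quantile normalization, and 30, all negative, with array weights (25.6%), and a fit of only the groups compared and Dunn tests were not run. Leaving out 1 sample gave 31 to 48, 0 to 1, 2 to 16, 0 to 9 and 1 to 12 in the same order. In these fits 24.7% to 57.9%, 0.0564% to 0.432% and 8.43% to 45.8% of all genes were higher in the first 3 comparisons, and 2.12% to 4.52% and 1.67% to 23.1% lower in the last 2. The cause of these moves was not tested.

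With the replicate number as a block the counts were 38, 0, 4, 0 and 1 (10 with an unadjusted p under 0.05 at 24 months). They were 37 higher and 1 lower at 6 months (38.9% and 1.01% of all genes), 2 and 2 for age in WT (18.1% and 0.903%) and 1 negative interaction (2.58%), while 0.254% of all genes were higher at 24 months and 3.04% lower with age in UBR4 mKO. Samples of the same number deviated together little (r from -0.35 to 0.18, over 0.1 in 4 of 24 pairs, and the best match in 7). Whether the numbers pair the samples in some other way was not tested.

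Chosen after seeing the data, Y-linked RNA as a covariate gave 40, 1, 5, 2 and 1 (39 higher at 6 months, against 43.0% of all genes, and 4 for age in WT, against 19.2%). With median-of-ratios scaling as well it gave 4, all lower (8.97%), 0, 2, both lower (2.50%), 1, higher (5.32%), and 0. Median-of-ratios scaling without the third UBR4 mKO sample at 24 months gave 28 (4 higher and 24 lower, against 10.9% and 17.1% of all genes), 0, 32 (all lower, against 10.7%), 15 (1 higher and 14 lower, against 7.65% and 7.11%) and 0, and without the fourth at 6 months 4 (all lower, against 9.65%), 0, 3 (all lower, against 4.92%), 2 (1 higher and 1 lower, against 5.38% and 4.45%) and 0.

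The median fold change of the large minus that of the small subunit at 6 months (0.01) was 0.053 after quantile normalization and -0.016 with subunits assigned by structure, and for age in WT (-0.02) it was 0.016 after quantile normalization. Leaving out 1 sample gave -0.024 to 0.048 at 6 months, -0.051 to -0.020 at 24 months, -0.035 to 0.011 and -0.017 to 0.027 for age in WT and in UBR4 mKO, and -0.081 to -0.032 for the interaction.

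Of 33 calls of named members, 33 kept their direction without rescaling and 24 under every alternative, 20 kept their call without any 1 sample and 3 after median-of-ratios scaling. Several alternatives without rescaling cannot change the direction, because they leave the fold change as it is. These include the fit without a variance trend, the replicate block, the fit of only the groups compared and Dunn tests. The fold change reversed for Mrpl16 with age in WT (-0.030) and, at 6 months, for Mrpl13 (-0.10), Mrpl14 (-0.00414), Mrpl45 (-0.043), Mrpl47 (-0.074), Mrpl48 (-0.021), Mrps10 (-0.033) and Mrps16 (-0.027) under median-of-ratios scaling. It did for Mrpl13 (-0.0051) without mitochondrially encoded genes, and for Mrpl13 (-0.066), Mrpl47 (-0.029), Mrps10 (-0.038) and Mrps35 (-0.021) after quantile normalization. In the 250 bases before the start alone, the NRF1, ETS and YY1 motifs were in 10, 17 and 2 of 68 members.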
